A study of Mus musculus with 4 samples.

Results

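Oxidative phosphorylation is carried by genes of both genomes, and 108 of the 31053 features in the mouse count tables belong to it. The members were chosen by symbol alone: those starting with Nduf, Uqcr, Atp5 or Cox4 to Cox8, the 4 succinate dehydrogenase genes, Cyc1, Cycs, and the protein-coding genes of mitochondrial DNA. Of the members, 95 lie in the nuclear genome and 13 in mitochondrial DNA. The nuclear members are 36 genes of complex I, 8 assembly factors of complex I, 4 genes of complex II, 9 of complex III, 20 of complex IV, 17 of complex V and cytochrome c. Of these, 3 features held fewer than 10 unique molecular identifiers (UMIs, each marking 1 captured transcript) over all cells: Cox7b2 with 9, Cox8c with 0 and a second identifier of Atp5o with 0.

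Complexes I to IV pass electrons from NADH and succinate to oxygen, all but complex II pump protons across the inner mitochondrial membrane, and complex V uses that gradient to make ATP. Mitochondrial DNA encodes core subunits of every complex except complex II, and several nuclear subunits of complex IV exist as paralogues that differ between tissues. Epithelium of the choroid plexus secretes cerebrospinal fluid and is rich in mitochondria, while brain endothelium, pericytes and smooth muscle cells form the vessel wall.

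The libraries were 10x 3′ single-cell libraries of brain vascular-associated cells (BVACs), captured with beads against the endothelial protein CD31 from wild-type male C57BL/6 mice 12 to 14 weeks old. In chronic social defeat (CSD) a mouse lived for 14 days behind a partition in the cage of an aggressive CD-1 mouse with daily contact. Home cage (HC) mice were paired for as long with a CD-1 mouse that a partition kept apart throughout. Each condition had 2 libraries and each library pooled 4 mice, so the replicate here is a library, neither a mouse nor a cell. The 4 libraries held 27297599 to 30361474 UMIs and 14415 cells with at least 500 UMIs, at least 250 genes and at most 25% mitochondrial UMIs. That last limit also caps the mitochondrial levels given below, and it removed 37.0% in CSD 1, 67.1% in CSD 2, 32.7% in HC 1 and 43.8% in HC 2 of the barcodes past the other limits. CSD 2 stood apart, with a median of 50.5% mitochondrial UMIs per barcode before the limit against 10.6% to 14.5% in the others. Pairs of libraries shared 0 to 9 cell barcodes.

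Cells were sorted into classes by marker genes, none of which is a member. A cell needed at least 3 UMIs from at least 2 markers of a class and 3 times the marker UMIs of any other class. In this way 11 classes had at least 10 cells in every library: endothelial cells (EC, 4986 cells) with their capillary, arterial and venous subtypes, microglia (4169), choroid plexus (1588), smooth muscle cells (SMC, 485), astrocytes (375), pericytes (234), ependymal cells (184) and T cells (88). Levels are counts per 1000000 UMIs of the class in a library (CPM). A 3′ kit counts a transcript once whatever its length. How well a transcript is captured may still differ between genes and was not tested, so levels and shares across different genes compare only roughly. Fold changes and p-values come from edgeR's quasi-likelihood test on UMIs summed per library and class, with Benjamini-Hochberg adjustment over all genes tested, and are on edgeR's normalized (TMM) scale. A value after ± is a standard error (SE) for a log2 fold change and a standard deviation (SD) over the 4 libraries for a level or share.

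Promoters of members from both kinds, common and tissue-restricted subunits, are shown as the sequence context of the differences described below. Among the 95 nuclear members, 75 had a promoter window in the RefSeq table (GRCm38.p6, 250 bases before to 50 after the start). The letters GCGCATGC, a core of the NRF1 binding motif, stood on either strand in 13 of the 75 windows (17.3%) and in 2.80% of 27025 windows of all genes. The ETS-type letters CCGGAAG stood on either strand in 17 of the 75 windows (22.7%) and in 9.14% of all windows, and 5 members held both (Atp5k, Atp5l, Cox6a1, Sdhb and Uqcr11). The 250 bases before the start are printed 5′ to 3′ for Cox6a1 and Cycs, which hold a motif, and for Cox7a1 and Cox8b, where neither was found in the window. Capitals mark either motif, and in Cox6a1 the NRF1 letters of both strands overlap. Most of the 75 windows held neither motif. The printed promoters are examples, and whether the motifs differ between common and tissue-restricted subunits was not tested. A match is a run of letters and not evidence of binding.
Cox6a1 (chr5:115348959-115349208, minus strand): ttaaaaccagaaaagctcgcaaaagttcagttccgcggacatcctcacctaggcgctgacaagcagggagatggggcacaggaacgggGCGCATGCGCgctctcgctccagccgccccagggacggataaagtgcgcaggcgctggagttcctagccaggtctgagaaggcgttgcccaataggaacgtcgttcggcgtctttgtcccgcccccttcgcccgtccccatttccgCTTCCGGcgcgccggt
Cycs (chr6:50566570-50566819, minus strand): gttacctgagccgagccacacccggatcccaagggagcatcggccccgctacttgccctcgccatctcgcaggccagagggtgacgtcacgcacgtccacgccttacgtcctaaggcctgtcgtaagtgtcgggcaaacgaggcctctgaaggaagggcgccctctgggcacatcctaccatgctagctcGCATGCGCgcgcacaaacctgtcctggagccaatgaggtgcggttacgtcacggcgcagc
Cox7a1 (chr7:30183921-30184170, plus strand): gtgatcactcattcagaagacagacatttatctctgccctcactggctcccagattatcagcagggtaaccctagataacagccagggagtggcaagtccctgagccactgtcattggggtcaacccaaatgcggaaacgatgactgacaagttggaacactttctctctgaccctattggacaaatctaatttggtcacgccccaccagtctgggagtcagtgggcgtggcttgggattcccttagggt
Cox8b (chr7:140900447-140900696, minus strand): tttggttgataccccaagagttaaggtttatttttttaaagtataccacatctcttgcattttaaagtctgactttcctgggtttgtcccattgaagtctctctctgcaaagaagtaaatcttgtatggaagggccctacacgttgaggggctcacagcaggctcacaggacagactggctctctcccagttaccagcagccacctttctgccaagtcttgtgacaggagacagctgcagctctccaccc

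Summed over the nuclear members, the choroid plexus had the highest level of the 11 classes and microglia the lowest. In the choroid plexus the level was 44081 in CSD 1, 47312 in CSD 2, 46667 in HC 1 and 49173 in HC 2 (CPM). In microglia it was 9860 in CSD 1, 14233 in CSD 2, 10150 in HC 1 and 14277 in HC 2. The classes between them were led by SMC with 28940 ± 2354 CPM (SD, n = 4 libraries), ependymal cells with 24924 ± 2283 and pericytes with 23001 ± 1996. Arterial EC (19206 ± 1782), T cells (18963 ± 2835), EC (18611 ± 2112), capillary EC (18588 ± 2118), venous EC (18459 ± 4861) and astrocytes (18171 ± 4664) followed, and neighbours among these 6 classes differed by less than their spread.

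**Figure D1:**
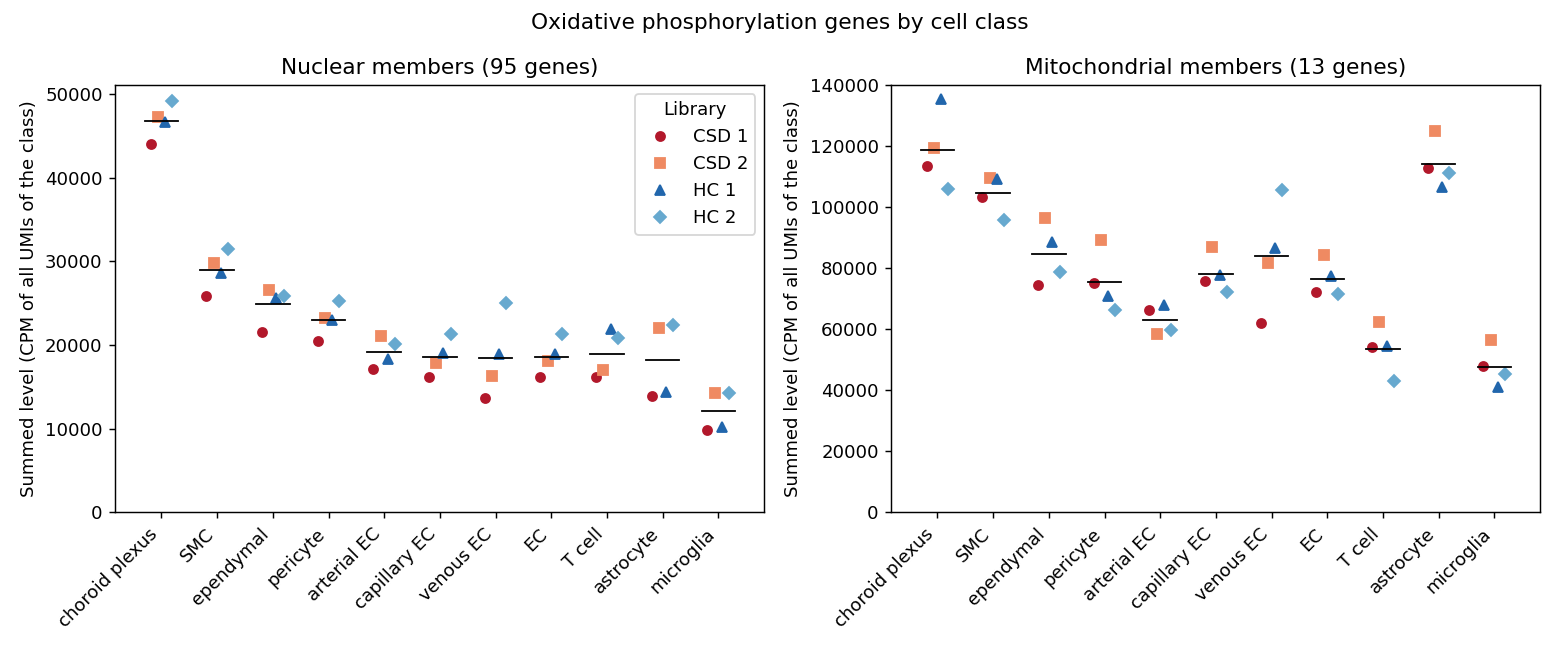
Summed level of the 95 nuclear and 13 mitochondrial members in each cell class, in CPM of all UMIs of the class. Each symbol is a library and the bar is the mean of 4. The choroid plexus is highest for the nuclear members (mean 46808 CPM), and it, the astrocytes and SMC are highest for the mitochondrial members.

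The mitochondrial members followed another order. They reached 118664 ± 12453 CPM in the choroid plexus, 114066 ± 7870 in astrocytes and 104639 ± 6464 in SMC, against 76417 ± 5880 in EC, 75426 ± 9942 in pericytes and 47658 ± 6416 in microglia. Astrocytes held 6.55 ± 1.47 mitochondrial UMIs for each nuclear member UMI and EC 4.15 ± 0.57, while the choroid plexus held 2.54 ± 0.31. The mean ratio was lowest in the choroid plexus, but T cells lay below it in both HC libraries. On this scale of all UMIs, the mitochondrial levels of choroid plexus and astrocytes differed by less than their spread. In near-empty barcodes of 100 UMIs or fewer, mostly free RNA, the nuclear members made up 28348 to 41328 CPM and the mitochondrial members 214890 to 380499 CPM, both above their levels in EC. The part of free RNA in the levels of each class was not tested.

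Choroid plexus cells had higher levels of nearly every member than EC. Of 104 members tested, 100 were higher and 2 lower, where 39.2% of all genes tested were higher and 40.9% lower. All 36 nuclear complex I genes, all 4 of complex II, all 9 of complex III, all 16 tested of complex V and all 13 mitochondrial genes were higher. The median log2 fold change was 2.001 for nuclear and 1.53 for mitochondrial members, against -0.05 for all genes. On the plain CPM scale the nuclear members stood at 2.53 ± 0.18 times (SD, n = 4) the EC level in the same library. The scales differ: transthyretin (Ttr), the main secreted protein of the choroid plexus, took 313026 ± 6220 CPM there. With Ttr left out of the totals, a choice made after seeing the data, the ratio was 3.66 ± 0.27. The mitochondrial members then stood at 155642 to 194825 CPM in the choroid plexus and 107248 to 125566 CPM in astrocytes, with no overlap. Ttr also stood at 1394 to 11127 CPM in EC, lowest in CSD 2.

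The largest differences in the choroid plexus were in subunits with tissue-restricted paralogues. Cox8b (chr7:140898945-140900446, GRCm38), the muscle and brown fat form of a small complex IV subunit, stood at 142 in CSD 1, 89.6 in CSD 2, 153 in HC 1 and 124 in HC 2 (CPM), against 0.433 to 6.20 CPM in EC. Its log2 fold change was 6.10 ± 0.20 (adjusted p = 1.27e-13, edgeR). Cox6b2, known as the testis form of Cox6b, stood at 159.7 to 191 CPM against 3.01 to 10.3 (5.87 ± 0.19). Cox7a1, the heart and muscle form of Cox7a, stood at 42.0 to 66.4 CPM against 0.867 to 5.68 (4.90 ± 0.21). None of these 3 genes had ranges that overlapped between the classes.

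The common forms were higher too and remained the larger part of each pair. Cox8a stood at 2194 to 2762 CPM in the choroid plexus and 562 to 846 in EC (log2 fold change 2.75 ± 0.10), so that Cox8b made up 4.85% of the Cox8a and Cox8b UMIs there. Cox7a1 made up 7.25% of the Cox7a1 and Cox7a2 UMIs in the choroid plexus, against 1.01% in EC. Atp5g1, 1 of 3 genes for the same membrane subunit c of complex V, stood at 2042 to 2345 CPM in the choroid plexus and 145 to 256 in EC (4.33 ± 0.12). Its sisters Atp5g3 (2.84 ± 0.09) and Atp5g2 (1.21 ± 0.09) were higher by less. The assembly factor Ndufaf6 (3.41 ± 0.17), the complex I subunits Ndufa1 (3.28 ± 0.10) and Ndufa11 (3.13 ± 0.11) and the complex III subunit Uqcr10 (2.88 ± 0.10) also rose. Cytochrome c (Cycs) was higher by 2.49 ± 0.09, and Cyc1, the cytochrome c1 of complex III, by 2.15 ± 0.09. The mitochondrial genes ranged from 0.56 ± 0.11 for mt-Atp8 to 1.92 ± 0.09 for mt-Nd4l. The 2 members that were lower were Ndufa4l2 (-4.28 ± 0.23) and Cox4i2 (-3.92 ± 0.32).

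Genes around the respiratory chain also stood higher in the choroid plexus. Of 16 genes of the TCA cycle list, 16 passed the test upward, among them Idh3a (3.50 ± 0.11) and Idh2 (2.61 ± 0.10), a pair of isocitrate dehydrogenase genes. Of 9 mitochondrial carriers and channels 9 were higher, among them Mpc1, a subunit of the pyruvate carrier (2.56 ± 0.09). In glycolysis 13 of 17 genes were higher and 4 lower, and these included Ldhb (4.67 ± 0.12) and the glucose transporter Slc2a1 (-5.41 ± 0.15), a marker of brain endothelium. Of 13 regulators of mitochondrial biogenesis tested, 8 were higher and 3 lower, with the coactivator Ppargc1a (4.66 ± 0.19) and the nuclear receptor Esrrg (4.91 ± 0.48) among the higher ones.

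**Figure D2:**
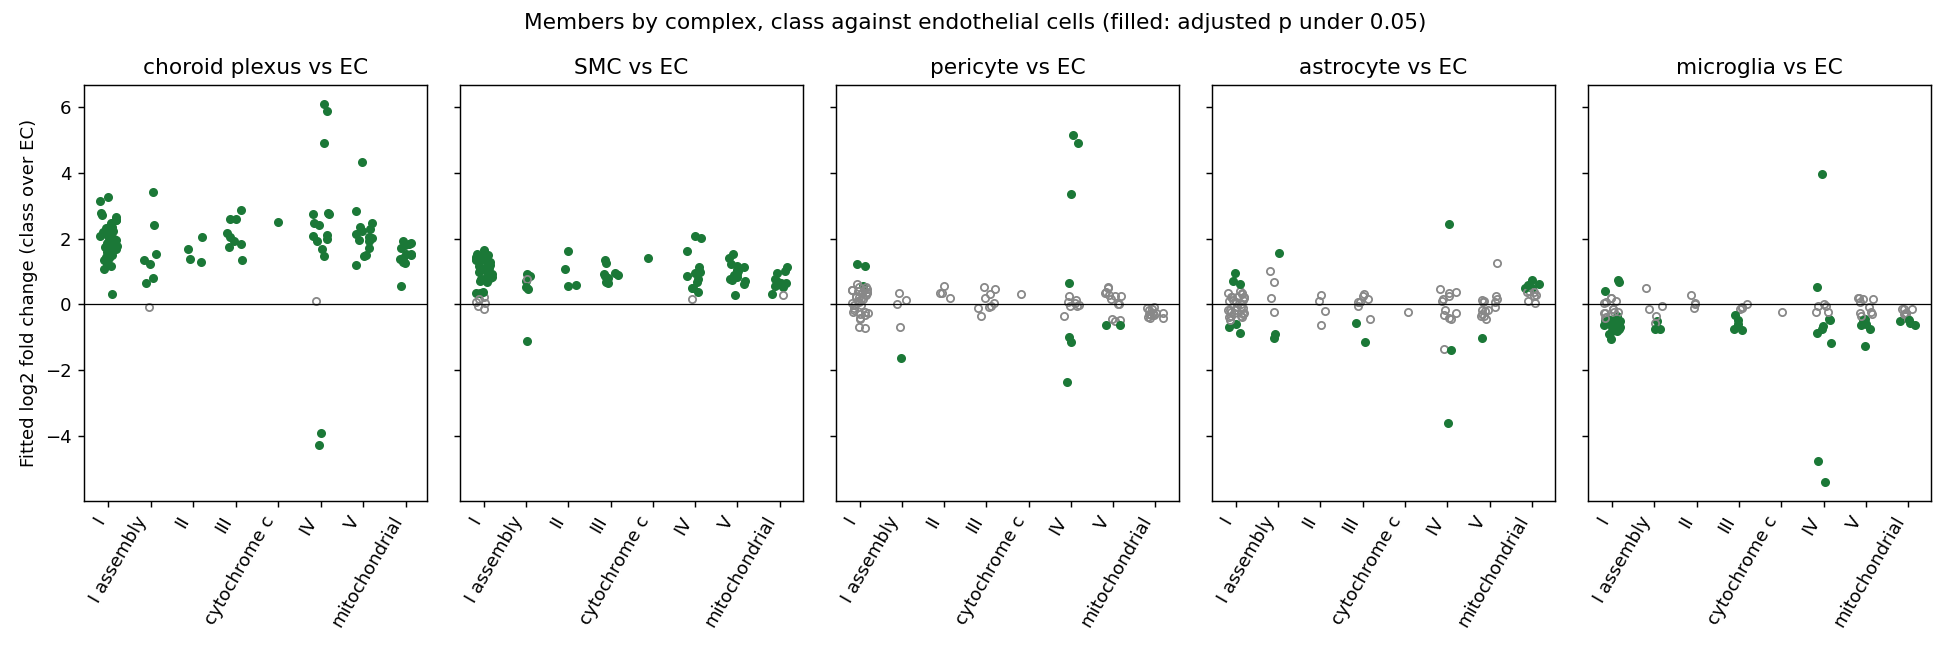
Fitted log2 fold change of each member in a class over EC, grouped by complex. Filled points passed an adjusted p of 0.05. Nearly all members lie above 0 in the choroid plexus (100 of 104 called higher) and SMC (89 of 99), while in pericytes the outlying points are mainly in complex IV.

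SMC, the contractile cells of arteries and arterioles, had the second highest nuclear level. Of 99 members tested against EC, 89 were higher and 1 lower, where 26.4% of all genes tested were higher and 27.4% lower. The medians were 0.91 for nuclear and 0.63 for mitochondrial members, against -0.05 for all genes, and on the CPM scale the nuclear members stood at 1.56 ± 0.08 times the EC level. All 15 tested genes of complex V, all 9 of complex III and all 4 of complex II were higher. Sdhc, a membrane anchor of complex II, stood at 174 to 222 CPM in SMC and 68.2 to 86.3 in EC (log2 fold change 1.63 ± 0.11), and Cycs at 192 to 237 against 81.3 to 104 CPM (1.41 ± 0.11). Ndufa13 (1.66 ± 0.10), Cox8a (1.62 ± 0.10) and Ndufs7 (1.53 ± 0.11) rose as well, and Ndufa4l2 (2.06 ± 0.16) and Cox4i2 (2.002 ± 0.19) had the largest differences. The 1 lower member was Ndufaf7 (-1.11 ± 0.18), a methyltransferase needed for complex I assembly. In the TCA cycle list 14 of 16 genes were higher, among them Idh2 (2.97 ± 0.13), and 8 of 9 carriers were higher while Ucp2, an uncoupling protein, was lower (-3.58 ± 0.19).

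Pericytes, the mural cells of capillaries, had a nuclear level of 1.24 ± 0.04 times (SD, n = 4) that of EC in the same library, and few single members passed the test. Of 98 members tested, 7 were higher and 6 lower, where 8.75% of all genes tested were higher and 16.5% lower. The median log2 fold change was 0.15 for nuclear and -0.27 for mitochondrial members, against -0.21 for all genes, and no mitochondrial gene passed the test. The 13 called members became 21 with no filter on low counts and 21 with at most 10% mitochondrial UMIs. Whether calls among all genes rose as much under these settings was not tested. The largest differences among called members lay in complex IV subunits.

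Ndufa4l2, a paralogue of the complex IV subunit Ndufa4 that is known as a target of hypoxia-inducible factors, stood at 1197 in CSD 1, 1680 in CSD 2, 1340 in HC 1 and 1303 in HC 2 (CPM) in pericytes. In EC it stood at 53.3, 37.3, 30.1 and 42.4 CPM in the same order. The log2 fold change was 4.92 ± 0.23 (adjusted p = 1.32e-98, edgeR). Ndufa4 itself stood at 78.9 to 168 CPM in pericytes and 418 to 599.9 in EC (-2.37 ± 0.27, adjusted p = 1.09e-16). The ranges of both genes lay apart between the classes, in opposite directions.

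Ndufa4l2 made up 90.0% in CSD 1, 95.5% in CSD 2, 93.9% in HC 1 and 88.6% in HC 2 of the UMIs of the pair in pericytes. These shares rest on 49 to 223 UMIs a library. The share was 31.3% ± 6.14 in arterial EC, 18.8% ± 4.90 in SMC, 7.27% ± 2.77 in EC and 3.57% ± 1.35 in capillary EC (SD, n = 4). Its mean was 0.778% in ependymal cells, 0.595% in venous EC, 0.563% in astrocytes, 0.343% in microglia, 0.0634% in the choroid plexus and 0% in T cells. Arterial EC also held more UMIs of pericyte and SMC markers than capillary EC, as given below. The part of these in the arterial share was not tested. In near-empty barcodes Ndufa4l2 stood at 21.2 to 34.9 CPM, and in capillary EC at 20.1 ± 7.44 CPM. Ependymal cells of the same libraries held 0 to 6.56 CPM, on 0 to 2 UMIs a library. The part of free RNA in the capillary EC values was not tested.

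Cox4i2, a paralogue of the regulatory subunit Cox4i1 first known from lung, followed the same order over the vascular classes. It stood at 583 to 767 CPM in pericytes and 14.5 to 22.4 in EC (log2 fold change 5.15 ± 0.23, adjusted p = 1.06e-111, edgeR). Its share of the Cox4i1 and Cox4i2 UMIs was 36.7% in CSD 1, 39.2% in CSD 2, 37.0% in HC 1 and 38.0% in HC 2 in pericytes. It was 8.24% ± 4.21 in arterial EC, 4.25% ± 1.07 in SMC and 1.82% ± 0.487 in EC. The same limit of pericyte and SMC markers holds for the arterial share. Near-empty barcodes held Cox4i2 at 9.34 to 16.6 CPM, while ependymal cells held 0 UMIs of it in each library. The part of free RNA in its EC level was not tested. Unlike Ndufa4, Cox4i1 did not pass the test between pericytes and EC (0.07 ± 0.22). Cox4i2 (chr2:152754173-152765037) and Ndufa4l2 (chr10:127514967-127517154, GRCm38) lie on different chromosomes. Higd1b, a mitochondrial protein gene of the list of assembly factors and not a member, was also higher in pericytes (5.00 ± 0.24) and SMC (2.44 ± 0.13) and lower in the choroid plexus (-4.37 ± 0.19) and microglia (-4.91 ± 0.29) than in EC.

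**Figure D3:**
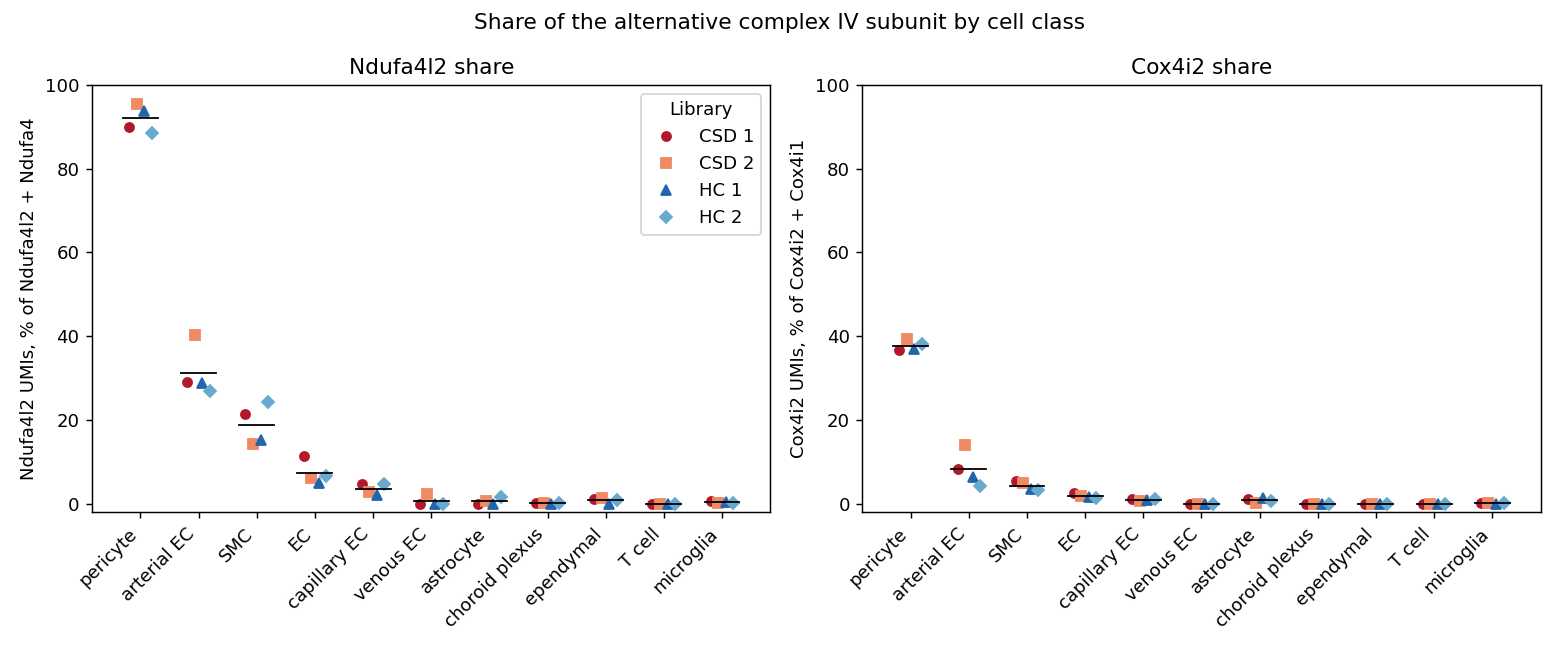
Ndufa4l2 as a percent of Ndufa4 plus Ndufa4l2 UMIs and Cox4i2 as a percent of Cox4i1 plus Cox4i2 UMIs in each class. Symbols are libraries and bars are means of 4. Pericytes stand at 92.0% and 37.8%, with arterial EC and SMC next and the non-vascular classes near 0. Arterial EC also held more pericyte and SMC marker UMIs than capillary EC, and their part was not tested.

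Other members also passed the test in pericytes. Cox6b2 was higher (3.36 ± 0.56) on 1 to 9 UMIs a library. It stood at 29.1 to 111 CPM, where near-empty barcodes held 19.4 to 84.1 CPM, and the part of free RNA was not tested. The complex I core subunit Ndufs7 (245 to 495 against 107 to 148 CPM, 1.18 ± 0.22) was higher. Cox5a (-1.14 ± 0.24), Cox7a2l, which takes part in supercomplex assembly (-1.01 ± 0.24), and Ndufaf7 (-1.65 ± 0.51, on 1 to 3 UMIs a library) were lower. Smaller differences passed for Cox8a (0.64 ± 0.22), Ndufa13 (0.54 ± 0.21), Atp5j (-0.63 ± 0.22) and Atp5j2 (-0.63 ± 0.24). Of 10 genes of the RNA quality and dissociation list, 4 were higher in pericytes than in EC, among them the heat shock gene Hspa1a (2.96 ± 0.24), and its part in these differences was not tested.

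Between SMC and pericytes, of 96 members tested, 55 were higher in SMC and 2 lower, where 21.2% of all genes tested were higher and 17.2% lower. The 2 lower members were again Cox4i2 (-3.39 ± 0.19) and Ndufa4l2 (-3.13 ± 0.16). Ndufa4 (2.63 ± 0.23) had the largest difference upward, followed by Cox7a2l (1.12 ± 0.21), Cox5a (1.07 ± 0.21) and Cox5b (1.06 ± 0.20). Of the 13 mitochondrial genes, 11 were higher in SMC.

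Microglia, the resident macrophages of the brain, had the lowest levels. Of 102 members tested against EC, 5 were higher and 46 lower, where 33.2% of all genes tested were higher and 33.4% lower. Medians were -0.36 for nuclear and -0.30 for mitochondrial members, against -0.02 for all genes. Of 36 complex I genes, 20 were lower and 3 higher, such as Ndufa9, while no complex II gene passed the test. Atp5j, coupling factor 6 of complex V, stood at 169.6 to 280.1 CPM against 558 to 727 in EC (-1.26 ± 0.18), and Cox5a at 107 to 167 against 346 to 400.4 (-1.18 ± 0.17). Ndufa4l2 (-5.40 ± 0.27) stood at 1 to 3 and Cox4i2 (-4.76 ± 0.41) at 0 to 2 UMIs a library in microglia.

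Cox6a2, the heart and muscle form of Cox6a, was higher in microglia. It stood at 4.86 in CSD 1, 13.9 in CSD 2, 5.42 in HC 1 and 7.22 in HC 2 (CPM, 13 to 39 UMIs) against 0 to 3 UMIs a library in EC (log2 fold change 3.96 ± 0.50, adjusted p = 6.5e-06, edgeR). It made up 3.94% of the Cox6a1 and Cox6a2 UMIs. Near-empty barcodes held Cox6a2 at 4.27 in CSD 1, 6.56 in CSD 2, 3.90 in HC 1 and 6.99 in HC 2 (CPM). The part of free RNA in its microglia level was not tested. The count of lower members in microglia depended on the library left out: it was 27 without HC 1, 29 without CSD 1, 40 without HC 2 and 59 without CSD 2. The summed nuclear level was higher in CSD 2 and HC 2 than in CSD 1 and HC 1, as given above, and the same held in astrocytes (CPM of 13912 in CSD 1, 21985 in CSD 2, 14365 in HC 1 and 22423 in HC 2).

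Astrocytes differed between the genomes. Of 101 members tested against EC, 11 were higher and 10 lower, where 19.9% of all genes tested were higher and 26.4% lower. Of the 13 mitochondrial genes 6 were higher (mt-Co3, mt-Nd4, mt-Nd5, mt-Co1, mt-Atp6 and mt-Cytb) and none lower, with mt-Co3 at 20991 to 25877 CPM against 11552 to 15691 (0.74 ± 0.17). Among the nuclear members 5 were higher, such as the assembly factor Ndufaf4 (1.56 ± 0.29) and Cox6b2 (2.44 ± 0.53, on 3 to 5 UMIs a library). Another 10 were lower, such as Ndufa4l2 (-3.63 ± 0.71), Cox7a2l (-1.40 ± 0.25) and Uqcrb (-1.14 ± 0.24). Cox6b2 stood at 12.6 to 44.8 CPM in astrocytes, in each library below its near-empty level (19.4 to 84.1 CPM). The part of free RNA in its astrocyte level was not tested. The mitochondrial result depends on the limit on mitochondrial UMIs. With at most 10% in place of 25%, 7 mitochondrial genes changed sign, such as mt-Nd3 (-0.73) and mt-Atp8 (-0.77). Of the 6 called higher, all but mt-Co3 were among these 7. Astrocyte-gated barcodes above the limit numbered 537 to 2965 a library against 55 to 159 kept.

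Among EC, the arterial subtype differed from the capillary one in both directions. Of 97 members tested, 6 were higher and 12 lower, where 9.18% of all genes tested were higher and 7.59% lower. Of the 13 mitochondrial genes 9 were lower, with mt-Co3 (-0.48 ± 0.08) and mt-Nd2 (-0.46 ± 0.08) among them. Ndufa4l2 (3.39 ± 0.24) and Cox4i2 (3.22 ± 0.38) were the members highest above capillary EC. The 18 called members fell to 5 with DESeq2, 7 without the library block, 8 with at most 10% mitochondrial UMIs and 9 with mitochondrial genes left out. Markers of mural cells moved with this result: the 5 pericyte markers summed to 787 to 1867 CPM in arterial EC and 122 to 220.2 in capillary EC, and the 6 SMC markers to 947 to 1493 against 53.4 to 149.8. Of those lists, 4 to 5 pericyte markers and 5 SMC markers had a UMI in each arterial library. Their part in the result was not tested. Venous EC differed from capillary EC in 1 member of 95, the complex I subunit Ndufa8 (1.20 ± 0.23), where 2.38% of all genes tested were higher and 2.09% lower.

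The study asked what CSD changes in these cells. No member passed the adjusted threshold between CSD and HC in any of the 11 classes, by edgeR or by DESeq2. With other settings of edgeR, Atp5k passed in capillary EC, with no filter on low counts (log2 fold change -0.74, adjusted p = 0.00601) and with the replicate block (-0.83, adjusted p = 0.0494). As tested here, the smallest adjusted p of any member was 0.379, in capillary EC (edgeR). At an unadjusted p under 0.05, edgeR gave 7 of 102 members in EC where 7.72% of all genes passed, 6 of 100 in capillary EC (8.75%), 6 of 92 in arterial EC (6.05%) and 8 of 67 in venous EC (8.99%). It gave 0 of 101 in microglia (1.29%), 2 of 77 in pericytes (2.6%), 3 of 98 in SMC (2.81%) and 3 of 103 in the choroid plexus (2.99%). It gave 1 of 85 in astrocytes (2.19%), 2 of 96 in ependymal cells (3.54%) and 2 of 50 in T cells (4.6%), so the members' shares were near those of all genes in most classes. Few genes of any kind passed the adjusted threshold: 0.118% of the genes tested in EC, 0.265% in capillary EC, 0.0364% in arterial EC, 0.0681% in venous EC, 0.0838% in pericytes, 0.0699% in the choroid plexus, 0.243% in astrocytes and 0% in microglia, SMC, ependymal cells and T cells. With 2 libraries per condition, an exact permutation test of a single value cannot give a p below 0.333.

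In EC the nuclear members were lower in both CSD libraries, at 16180 and 18062 CPM in CSD against 18931 and 21271 CPM in HC (log2 ratio -0.23, exact permutation p = 0.333, two-sided). The ranges did not overlap, for the sum or for complexes I, II, III, IV and V taken singly, and 7 of 89 nuclear members had a positive fold change. The median was -0.19, against -0.01 for all genes. The CSD and HC libraries did not overlap for 46.1% of members and for 38% of all genes tested in EC. The mitochondrial members overlapped, at 72212 and 84346 CPM in CSD against 77402 and 71707 CPM in HC. In near-empty barcodes the nuclear members also stood lower in both CSD libraries, at 30823 and 28348 CPM against 34397 and 41328 CPM in HC. The part of free RNA in the lower class levels of CSD was not tested. The RNA quality and dissociation list had a median of 0.62 in EC with 9 of 10 genes positive and 0 past the threshold, and its part in the member levels was not tested.

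The nuclear members also stood lower in both CSD libraries in T cells, at 16154 and 16948 CPM in CSD against 21886 and 20865 CPM in HC, and in venous EC, at 13609 and 16335 CPM in CSD against 18900 and 24991 CPM in HC. These rest on 14 to 35 T cells and 16 to 31 venous EC a library. In microglia the nuclear sums overlapped, 9.9% of members did not overlap where 22.8% of all genes did not, and the mitochondrial members stood higher in both CSD libraries, at 47986 and 56306 CPM in CSD against 41132 and 45206 CPM in HC (log2 ratio 0.27). In pericytes the mitochondrial members stood at 75161 and 89351 CPM in CSD against 70746 and 66447 CPM in HC. Near-empty barcodes also held more of them in both CSD libraries, at 314235 and 380499 CPM against 306706 and 214890 CPM in HC. The part of free RNA in these differences was not tested. No member passed a test of whether the CSD effect differed between EC and microglia (0 of 104), pericytes (0 of 103) or choroid plexus (0 of 104), by edgeR's interaction test or by DESeq2. Of all genes 0%, 0.0101% and 0.0264% passed. At an unadjusted p under 0.05, edgeR gave 0, 0 and 3 members, where 3.09%, 1.96% and 4.79% of all genes passed.

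**Figure D4:**
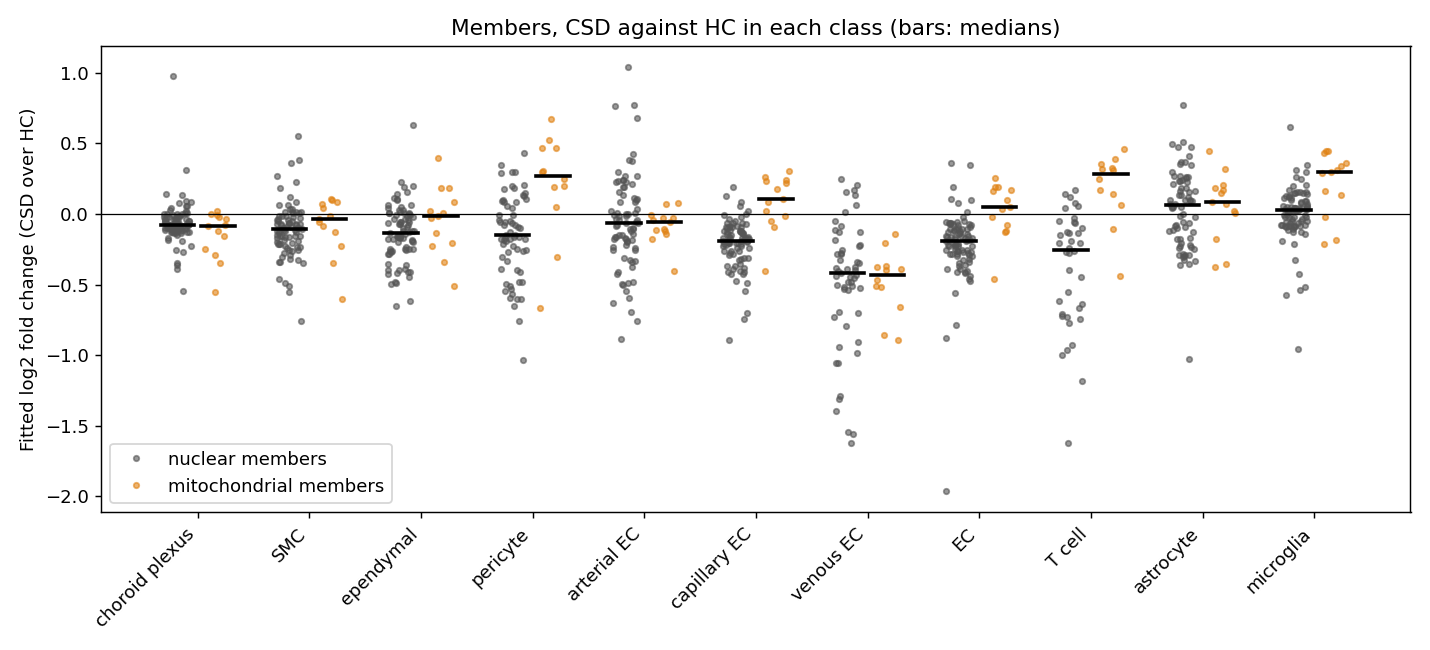
Fitted log2 fold change of every tested member, CSD over HC, in each class. No point passed the adjusted threshold. Most nuclear members lie below 0 in every class but astrocytes (41 of 72 above 0) and microglia (49 of 88).

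Some members were lowest in the same library in every class. Atp5k, subunit e of complex V, was lowest in CSD 2 in 8 of the 8 classes that do not overlap. It stood at 217 in CSD 1, 102 in CSD 2, 276 in HC 1 and 291 in HC 2 (CPM) in EC, and at 662 in CSD 1, 275 in CSD 2, 655 in HC 1 and 699 in HC 2 in the choroid plexus. CSD 1 also lay below both HC libraries in EC, pericytes, SMC, astrocytes and ependymal cells. In near-empty barcodes it stood at 559 in CSD 1, 227 in CSD 2, 588 in HC 1 and 730.0 in HC 2. Its mitochondrial partner in complex V, mt-Atp8, was also lowest in CSD 2 in 8 of 8 classes, with 422, 162, 359 and 299 CPM in EC, and mt-Nd4l in 7 of 8. By contrast, mt-Atp6, the other mitochondrial gene of complex V, was highest in CSD 2 in 7 of 8 classes. In EC it stood at 14723 in CSD 1, 19823 in CSD 2, 16332 in HC 1 and 15391 in HC 2 (CPM). The same count, 7 of 8, held for mt-Co3, mt-Co2, mt-Nd3 and mt-Cytb. CSD 2 was lowest for mt-Nd5 in 7 of 8 classes and for mt-Nd6 in 6 of the 7 classes with at least 20 UMIs. On mitochondrial DNA mt-Atp8 (7766-7969) overlaps mt-Atp6 (7927-8607), and mt-Nd4l (9877-10173) overlaps mt-Nd4 (10167-11544). How UMIs divide between overlapping genes was not tested, so their orders compare only roughly.

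Other members were lowest in every class in another library. In CSD 1 these were Uqcr11, Ndufa12, Ndufs6, Cox6c and Ndufa2, and in HC 2 this was mt-Nd2. The comparison covered 77 members with at least 20 UMIs in each of the 8 classes, so that 5 of 77 were lowest throughout in CSD 1 and 2 of 77 in CSD 2. Of all 951 genes with as many UMIs, 2.21% were lowest throughout in CSD 1, 1.37% in CSD 2, 0.105% in HC 1 and 0.21% in HC 2. Leaving out CSD 1 gave 7 called members in EC (Atp5k, Ndufa3, mt-Atp8, mt-Nd4l and mt-Nd6 lower, mt-Atp6 and mt-Co3 higher) of 104, or 6.73%, where 4.53% of all genes were called. Leaving out CSD 2 gave 4 lower ones (Ndufa11, Ndufa13, Ndufa5 and Ndufaf8), or 3.85%, where 3.07% of all genes were. With 1 library left in CSD, that library is assumed to vary like the HC pair. These names were chosen after their values were seen.

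**Figure D5:**
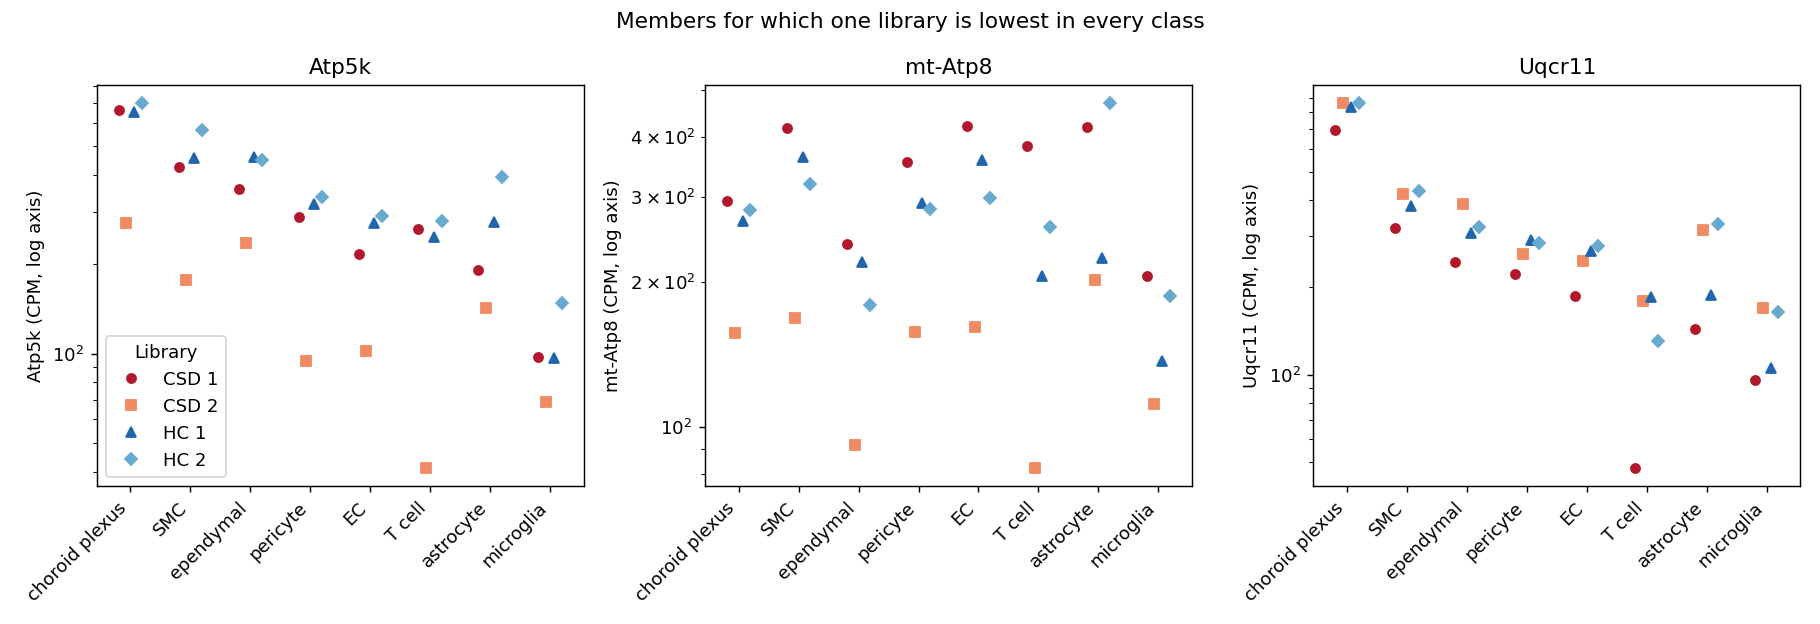
Level of members in the 4 libraries of each of 8 classes, in CPM on a log axis. CSD 2 is lowest for Atp5k and mt-Atp8 in all 8 classes, and CSD 1 is lowest for Uqcr11.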

How the data were processed

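The authors deposited unfiltered 10x matrices of raw UMI counts for 4 libraries. The submitters' processing notes name Cell Ranger 4.0 and GRCm38, while the matrix headers and the study's methods name other Cell Ranger versions, so the version is uncertain. The members and gene lists were chosen with earlier results of these data known. Cells needed at least 500 UMIs and 250 genes and at most 25% mitochondrial UMIs, and were gated by markers. No doublet caller was run, and cells whose marker UMIs did not exceed those of each other class by 3 times stayed out. Counts were summed per library and class and tested with edgeR 4.0.16 in R 4.3.3 (TMM, filterByExpr, quasi-likelihood test, Benjamini-Hochberg, threshold 0.05), with the library as a block between classes. DESeq2 1.42.0 was an alternative, and Python 3.11.15 with scipy 1.17.1 did the rest. The steps were tested on simulated data. Named genes were the mitochondrial genes, subunits with tissue-restricted paralogues, complex II, Cyc1, Cycs, up to 8 members per direction by size among called members whose libraries did not overlap, and up to 3 genes of each other list. Higd1b, Hspa1a and the members named by library were chosen after their values were seen. Other settings changed the filters, the gate, the normalization, the tool and the libraries. Intervals cover counting error only. Each library pools mice, so p-values between CSD and HC measure the spread between pools. Between classes the library was a block, so p-values there measure how the class difference varies from library to library. Levels are shares of the UMIs of a class, so they show neither the number of cells nor the RNA per cell. Positions come from the GRCm38 annotation by gene identifier. Some genes, and an alternative that needs one of them, are not reported here.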

Additional observations from a re-analysis of the deposited data

Results flagged for a closer look

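Barcodes above the 25% limit on mitochondrial UMIs entered no test and only the summed levels taken with no limit, and some were gated as pericytes. Those gated as pericytes numbered 3 in CSD 1, 12 in CSD 2, 1 in HC 1 and 7 in HC 2, and 22 of their 35 UMIs of Ndufa4 and Ndufa4l2 (62.9%, 95% exact binomial interval 44.9% to 78.5%) were Ndufa4l2. Among barcodes above the limit gated as EC, 2 of 261 such UMIs (0.766%) were. Of the Cox4i1 and Cox4i2 UMIs, 4 of 46 (8.70%, interval 2.42% to 20.8%) were Cox4i2 in the pericyte-gated barcodes and 2 of 882 (0.227%) in the EC-gated ones. Pooled over libraries, both pericyte shares lay below those of the pericytes kept.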

How the results depend on the processing

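Of the counts of called members, 258 stayed within 1.5 times the reported count over the settings tried and 23 did not. The tests of CSD and of its difference between classes, with 0 called members as reported, are included. There a count that stayed at 0 says little about stability. Of the values of named genes between classes, 3402 kept direction and side of the threshold, 156 lost the threshold, 42 gained it and 7 reversed. The reversals were all in astrocytes against EC with at most 10% mitochondrial UMIs: mt-Nd4 (-0.10), mt-Nd5 (-0.19), mt-Co1 (-0.19), mt-Cytb (-0.27), mt-Atp8 (-0.77), mt-Atp6 (-0.28) and mt-Nd3 (-0.73). All 55 shares of paralogue pairs stayed within the replicate spread when the gate needed at least 5 marker UMIs. The shares were not recomputed with other limits on mitochondrial UMIs or UMIs per cell, or without a library. In capillary EC, CSD against HC gave 1 member (Atp5k) with no filter on low counts and 1 (Atp5k) with the replicate block. The labels share replicate numbers, but there are only 2 pairs and no label ties a number to a batch. Over all genes tested, deviations of same-numbered libraries from their condition means correlated positively in every class, from 0.0265 in SMC to 0.443 in microglia. Whether this comes from a shared batch was not tested. The block stayed an alternative, and it gave 0 members in the other classes. Pericytes against EC gave 21 members with no filter and 21 with at most 10% mitochondrial UMIs. Arterial against capillary EC gave 5 with DESeq2, 9 with mitochondrial genes left out, 8 with at most 10% mitochondrial UMIs and 7 without the library block, against 18. Venous against capillary EC gave 2 with no filter and 2 with at most 10%. The summed mitochondrial level in SMC had a log2 CSD over HC ratio of -0.066 with no limit, against 0.05. The causes were not tested. Leaving out 1 library gave 0 to 7 CSD members in EC, 0 to 6 in capillary EC, 0 to 3 in SMC, 0 to 2 in choroid plexus, venous EC and T cells and 0 to 1 in pericytes and arterial EC. Of these, only the 4 in EC without CSD 2 and 1 in venous EC without HC 1 came from leaving out another library than CSD 1. It gave 31 to 63 in microglia against EC, 1 to 2 in venous against capillary EC, and a choroid plexus mitochondrial log2 ratio of -0.22 to 0.14. Among these other settings, the share of all genes called is given only for EC without CSD 1 and without CSD 2. The other counts have no such share here. Whether members were called more often than other genes under those settings was therefore not tested. Venous EC with at least 1000 UMIs a cell could not be run, with 9 cells in HC 2.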

Other observations

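Several classes had too few cells for a comparison, and their levels are pooled over the 4 libraries with 95% exact Poisson intervals. Border-associated macrophages (118 cells) had 15363 CPM of nuclear members (14908 to 15828) and 67753 CPM of mitochondrial members. Fibroblasts (57 cells) had 20088 CPM of nuclear members (19454 to 20736), with Ndufa4l2 at 42.2 CPM on 8 UMIs (18.2 to 83.2). Oligodendrocyte precursors (54 cells) had 22393 CPM of nuclear members. Oligodendrocytes (23 cells) had 20172 CPM of nuclear and 108373 CPM of mitochondrial members. Neutrophils or monocytes (32 cells) had 21315 CPM of nuclear and 46610 CPM of mitochondrial members.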
